A study of Homo sapiens with 6 samples.

Results

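The genes that build and run the DNA replication fork were examined in HCT116 cells, an established human colorectal carcinoma line, with and without small interfering RNAs (siRNAs) against the long noncoding RNA LINC01534. The list holds 49 genes, chosen by name from the known roles of their proteins and matched by symbol to the deposited table of 26255 genes. All 49 were found, and all 49 were among the 12203 genes with a mean FPKM (fragments scaled by transcript length and library size) of at least 1 that were tested. There were 3 groups of 2 libraries, namely parent HCT116 cells, cells with siLINC01534-1 and cells with siLINC01534-2. The parent cells carry no described treatment, so a difference from parent includes the transfection itself, and the effects of transfection and of the siRNA cannot be told apart.

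Replication is prepared in G1, when the origin recognition complex (ORC), CDC6 and CDT1 load the ring-shaped MCM2-7 helicase onto DNA, a step called licensing that geminin (GMNN) blocks later in the cycle. At the start of S phase, the CDC7-DBF4 and cyclin E kinases convert loaded rings into active helicases with CDC45, the GINS complex and MCM10. DNA polymerases alpha, delta and epsilon then copy the strands, together with the PCNA clamp, and are fed by enzymes of deoxynucleotide synthesis. Many of these genes are transcribed under E2F factors as cells pass from G1 into S phase.

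Low FPKM move in steps worth 1 read, which put the depth at about 8670000 to 10400000 reads per library, and 16513 to 16903 genes were above 0. A replication gene rested on about 125.8 reads at the least (POLE2) and 6348.4 at the most (MCM7). The targeted RNA, LINC01534, was at 0.285 and 0.571 FPKM in parent cells, at 0 and 0.283 with siLINC01534-1, and at 0.660 and 0.551 with siLINC01534-2. Scaled by the depth of each library, with the smallest value taken as 1 read, that is 1 and 2 reads in parent cells, 0 and 1 with siLINC01534-1, and 2 and 2 with siLINC01534-2, which cannot tell a knockdown from none. Since the level was no lower than parent for siLINC01534-2, groups carry the names of their labels throughout. The epithelial markers EPCAM and KRT8 were at 199 to 204 and 1343 to 1730 FPKM, whereas CDX1, VIL1 and LGALS4 reached at most 0.369 FPKM. Of 7 markers of other cell types, PTPRC, CD3E, PECAM1, COL1A2 and ALB reached at most 0.193 FPKM, and COL1A1 and ACTA2 lay between 3.02 and 9.04 FPKM. Both of these were higher with siLINC01534-1 than in parent, and their part in the results below was not tested. The labels do not say whether libraries of a group came from separate cultures, so p-values measure only the spread between these samples.

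Replication genes were well expressed in parent cells, with a median of 35.5 FPKM beside 12.1 for all tested genes. The lowest was POLD3, a subunit of polymerase delta, at 8.35 FPKM, and the highest was PCNA, the sliding clamp, at 258 FPKM. With siLINC01534-1, 37 of the 49 genes fell against parent and 1, ORC3, rose (limma on log2(FPKM + 1), adjusted p under 0.05). Among all tested genes, 24.5% fell and 21.8% rose in this comparison. The median log2 difference of the 49 genes was -0.35, beside 0.00 for all tested genes. In 6 of the 49 genes (MCM10, GINS1, GINS2, DBF4, CCNE2 and RFC2) the mean FPKM was at most 1/2 of the parent mean, and 3.2% of all tested genes went as low. None of the 49 was at 2-fold or more, beside 2.65% of all tested genes. With siLINC01534-2, 32 of the 49 genes fell and 0 rose, where 11.8% of all tested genes fell and 11.1% rose. At an unadjusted p under 0.05, 41 fell and 0 rose, beside 19.3% and 18.7% of all tested genes. The median log2 difference was -0.27 and no replication gene reached a 2-fold change, whereas 1.02% of all tested genes were at or below 1/2 of parent and 1.59% at 2-fold or more. The same 2 parent libraries enter both comparisons, so these counts are not independent of each other.

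The libraries of the groups were mostly apart. Both siLINC01534-1 libraries lay below both parent libraries in 42 of the 49 genes (38.3% of all tested genes), and both siLINC01534-2 libraries did so in 47 (32.7% of all tested genes). Relative to the parent mean, the median replication gene was at 76.4% and 78.7% in the siLINC01534-1 libraries and at 82.9% and 82.1% in the siLINC01534-2 libraries. The siLINC01534-2 calls were the less stable. Only 15 genes were called without the first parent library, 16 without the second, and 17 when 1 of the siLINC01534-2 libraries was left out, while 23 were called when 1 of the siLINC01534-1 libraries was left out. The count over all tested genes also dropped in these refits, from 2788 to between 857 and 1931. The 13 genes called in each of these refits were ORC6, MCM2, MCM3, MCM4, MCM6, GINS2, RFC4, RFC5, RPA1, POLA1, POLE, FEN1 and RRM2. With siLINC01534-1, 30 of the 38 calls were kept in each refit, and those lost in at least 1 were ORC1, CDC6, GINS3, GINS4, PRIM1, PRIM2, POLD1 and LIG1. In bulk RNA, fewer cells in S phase and less RNA per cell cannot be told apart.

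**Figure D1:**
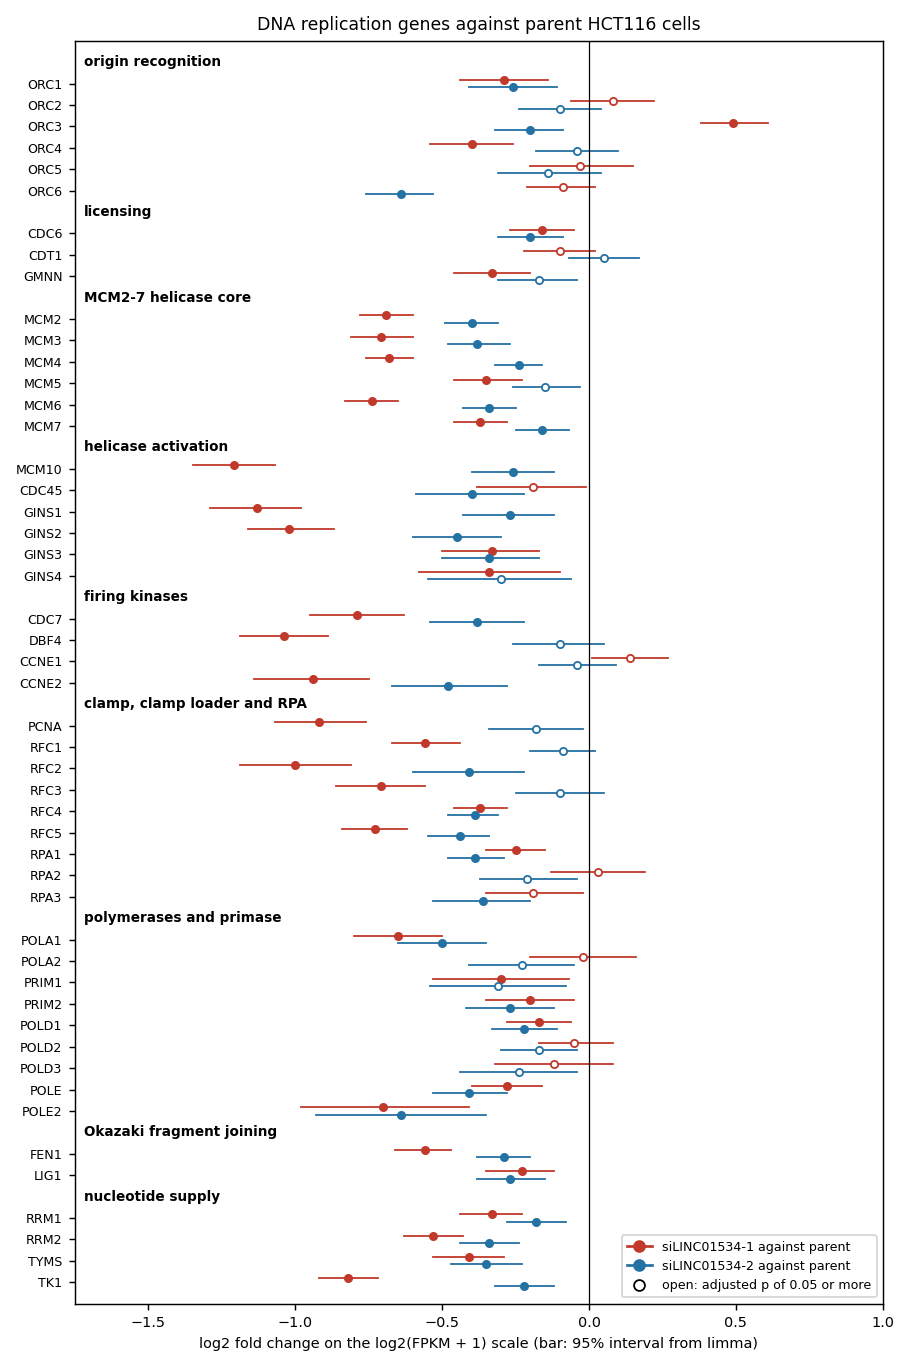
Log2 difference from parent on the log2(FPKM + 1) scale for the 49 replication genes by role, with siLINC01534-1 in red and siLINC01534-2 in blue. Bars are 95% intervals from limma and open points have an adjusted p of 0.05 or more. Most points lie to the left of 0, the red points of MCM10, GINS1, DBF4 and GINS2 lie beyond -1, and ORC3 is the 1 filled point to the right.

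Promoter sequences were examined because E2F factors are known regulators of these genes. RefSeq promoters on GRCh38.p14 (250 bases before to 50 after a start site) were matched for 42 of the 49 genes, 54 promoters in all. RPA2, GINS4, CCNE2, MCM4, POLD3, MCM5 and RPA3 had no entry. The words TTTCCCGC, TTTCGCGC, TTTGCCGC and TTTGGCGC, forms of the E2F site, were searched on both strands. At least 1 of them stood in 20 of the 54 promoters (37%), whereas 3.31% of all 35116 RefSeq promoters held one. Per gene, 20 of 42 replication genes (47.6%) and 6.89% of 9009 tested genes with a promoter held one. CCAAT, the NF-Y box, stood in 53.7% of these promoters and 34.6% of all promoters. Counted by gene, 24 of 42 replication genes (57.1%) and 43.2% of the 9009 tested genes held it. Stretches of 6 promoters are shown on the strand of the gene with the E2F words in capitals, a word on the other strand appearing as its reverse complement. The first 4 belong to genes that fell with siLINC01534-1, and the last 2, CDT1 and ORC3, to genes that did not.
MCM6 (chr2:135876512-135876605, minus strand): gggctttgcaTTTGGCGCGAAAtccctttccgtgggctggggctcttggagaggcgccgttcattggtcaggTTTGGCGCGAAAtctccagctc
CDC7 (chr1:91501034-91501095, plus strand): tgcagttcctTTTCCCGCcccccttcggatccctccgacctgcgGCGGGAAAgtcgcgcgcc
PCNA (chr20:5126632-5126691, minus strand): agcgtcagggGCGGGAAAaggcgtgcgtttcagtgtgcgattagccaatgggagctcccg
GINS2 (chr16:85688955-85689014, minus strand): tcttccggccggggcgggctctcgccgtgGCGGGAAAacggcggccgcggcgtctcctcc
CDT1 (chr16:88803729-88803788, plus strand): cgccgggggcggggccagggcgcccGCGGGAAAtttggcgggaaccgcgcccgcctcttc
ORC3 (chr6:87590075-87590134, plus strand): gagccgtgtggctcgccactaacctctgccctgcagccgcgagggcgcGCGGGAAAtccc
In MCM6, each of the 2 capital runs holds TTTGGCGC and, overlapping it on the other strand, TTTCGCGC, which makes 4 words in this window. The 20 genes with a word had a median log2 difference from parent of -0.53 with siLINC01534-1 and -0.31 with siLINC01534-2. The 22 genes with a promoter entry and no word had medians of -0.32 and -0.26. A word is a match of letters and says nothing of whether a factor was bound in these cells.

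Of the ORC subunits, which mark origins, ORC1 and ORC4 fell with siLINC01534-1, ORC3 rose, and ORC2, ORC5 and ORC6 did not pass the test. With siLINC01534-2, ORC1, ORC3 and ORC6 fell. ORC6, the smallest subunit, was at 35.3 and 35.6 FPKM in parent cells, 33.9 and 32.6 with siLINC01534-1, and 21.7 and 23.0 with siLINC01534-2. The siLINC01534-2 libraries thus stood alone, with a log2 difference of -0.64 ± 0.046 (SE, adjusted p = 0.0015), while siLINC01534-1 gave -0.09 ± 0.046 (adjusted p = 0.16). ORC3, a core subunit, was at 18.9 and 18.3 FPKM in parent cells, 26.0 and 27.0 with siLINC01534-1, and 16.3 and 15.7 with siLINC01534-2. It was 1.43-fold higher with siLINC01534-1 (log2 difference 0.49 ± 0.046, adjusted p = 0.00083) and lower with siLINC01534-2 (-0.20 ± 0.046, adjusted p = 0.032), and the latter call was lost whichever of the 6 libraries was left out. ORC4 was at 10.8 and 10.3 FPKM in parent cells, 7.95 and 7.49 with siLINC01534-1, and 10.2 in both siLINC01534-2 libraries. Its log2 difference was -0.40 ± 0.056 with siLINC01534-1 (adjusted p = 0.0031) and -0.04 ± 0.056 with siLINC01534-2 (adjusted p = 0.63). Single ORC subunits differed in which siRNA moved them, and the medians of the 6 were -0.06 and -0.17. With siLINC01534-1, 2 of the 6 fell and 1 rose, near the 24.5% and 21.8% of all tested genes, so these calls hardly set the ORC apart. With siLINC01534-2, 3 fell and 0 rose, beside 11.8% and 11.1% of all tested genes.

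Of the licensing regulators, CDC6 and CDT1 moved little, and GMNN fell further with siLINC01534-1. CDC6, which recruits the helicase to ORC, was at 62.2 and 65.2 FPKM in parent cells, 56.9 and 57.2 with siLINC01534-1, and 53.7 and 56.8 with siLINC01534-2. All 4 siRNA libraries were lower than both parent libraries, with log2 differences of -0.16 ± 0.044 (adjusted p = 0.033) and -0.20 ± 0.044 (adjusted p = 0.028). CDT1, the second loader, was at 44.6 and 48.4 FPKM in parent cells, 43.6 and 42.9 with siLINC01534-1, and 48.6 and 48.0 with siLINC01534-2. Neither difference from parent passed the test, at -0.10 with a 95% interval of -0.22 to 0.02 and at 0.05 with an interval of -0.07 to 0.17. GMNN, the inhibitor of CDT1, was at 62.9 and 57.1 FPKM in parent cells, 47.5 and 47.6 with siLINC01534-1, and 52.3 and 53.7 with siLINC01534-2. The siLINC01534-1 libraries were the lowest, and the log2 difference was -0.33 ± 0.053 (adjusted p = 0.0052), beside -0.17 ± 0.053 with siLINC01534-2 (adjusted p = 0.069).

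All 6 subunits of the MCM2-7 helicase fell with siLINC01534-1, and 5 of 6 fell with siLINC01534-2, all but MCM5. The median log2 differences were -0.69 and -0.29. The shares of all tested genes that fell were 24.5% and 11.8%. MCM6 was at 62.5 and 63.7 FPKM in parent cells, 37.95 and 37.03 with siLINC01534-1, and 49.02 and 50.21 with siLINC01534-2. The 3 groups did not overlap, and MCM6 fell by 0.74 on the log2 scale with siLINC01534-1 (SE 0.036, adjusted p = 0.00013) and by 0.34 with siLINC01534-2 (SE 0.036, adjusted p = 0.0041). MCM3 was at 149 and 150 FPKM in parent cells, 89.8 and 92.6 with siLINC01534-1, and 119 and 111 with siLINC01534-2. MCM2 was at 114 and 118 FPKM in parent cells, 70.9 and 71.5 with siLINC01534-1, and 88.7 and 86.3 with siLINC01534-2. In both genes the siLINC01534-1 libraries were lowest and the siLINC01534-2 libraries intermediate, with log2 differences from parent of -0.71 and -0.38 for MCM3 and -0.69 and -0.40 for MCM2. MCM4 followed the same order (-0.68 and -0.24), and MCM5 and MCM7 moved less with siLINC01534-1 (-0.35 and -0.37).

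In FPKM, which are per length, MCM6 was the lowest and MCM7 the highest subunit in all 6 libraries. In the parent libraries the ratio of highest to lowest was 3.48 and 3.52, and it was 4.53 and 4.57 with siLINC01534-1, and 4.11 and 3.84 with siLINC01534-2. In parent cells the summed FPKM of the 6 subunits came to 746.9 and 764.5, against 514.1 and 518.3 with siLINC01534-1, and 638.6 and 621.3 with siLINC01534-2. The subunits of this equimolar complex were thus unequal at the RNA level in parent cells and more so in the siRNA libraries.

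**Figure D2:**
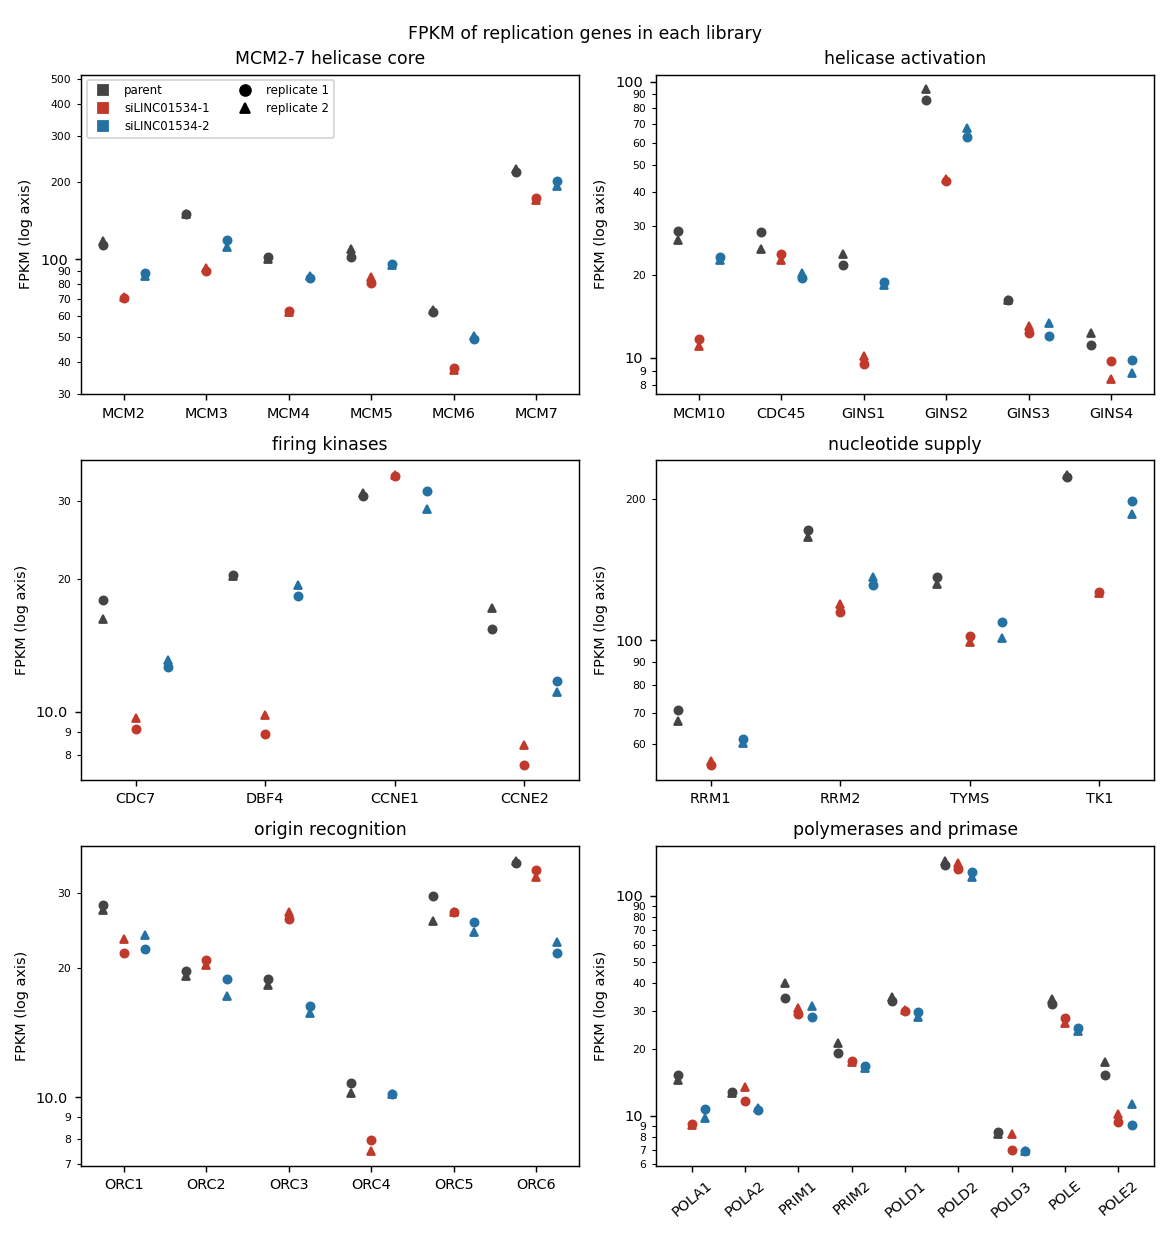
FPKM on log axes in each of the 6 libraries for 6 of the role groups, with parent in grey, siLINC01534-1 in red and siLINC01534-2 in blue, replicate 1 as circles and replicate 2 as triangles. In the MCM2-7 panel each gene steps down from grey to blue to red, whereas in the polymerase panel red and blue lie close together, and in the origin recognition panel red stands above in ORC3 and below in ORC4, and blue stands below in ORC6.

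Among the proteins that turn the loaded ring into a moving helicase, MCM10, GINS1 and GINS2 fell below 1/2 of parent with siLINC01534-1. MCM10, which is needed for helicase activation, was at 28.8 and 26.6 FPKM in parent cells, 11.7 and 11.1 with siLINC01534-1, and 23.3 and 22.6 with siLINC01534-2. This was 0.411 of the parent mean with siLINC01534-1 (log2 difference -1.21 ± 0.057, adjusted p = 0.00011), the lowest of the 49 ratios, and 0.828 with siLINC01534-2 (-0.26 ± 0.057, adjusted p = 0.028). GINS1 was at 21.6 and 23.8 FPKM in parent cells, 9.47 and 10.1 with siLINC01534-1, and 18.8 and 18.4 with siLINC01534-2, for log2 differences of -1.13 ± 0.063 and -0.27 ± 0.063. GINS2 was at 85.8 and 94.0 FPKM in parent cells, 43.5 and 44.3 with siLINC01534-1, and 63.1 and 68.0 with siLINC01534-2, for log2 differences of -1.02 ± 0.060 and -0.45 ± 0.060. In each of these genes the 3 groups were apart and siLINC01534-1 was lowest. The other members of the GINS tetramer moved less. GINS3 fell by 0.33 and by 0.34, and GINS4 was at -0.34 (adjusted p = 0.034) and -0.30 (adjusted p = 0.077). CDC45, the partner of GINS at the fork, fell with siLINC01534-2 (-0.40, adjusted p = 0.019) and did not pass the test with siLINC01534-1 (-0.19, adjusted p = 0.084).

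The kinases that fire origins ran from -1.04 to 0.14 on the log2 scale with siLINC01534-1, the widest range of any role. DBF4, the activating subunit of CDC7, was at 20.4 and 20.2 FPKM in parent cells, 8.92 and 9.85 with siLINC01534-1, and 18.3 and 19.4 with siLINC01534-2. The siLINC01534-1 libraries were at 0.462 of parent (log2 difference -1.04 ± 0.061, adjusted p = 0.00020), while the siLINC01534-2 difference of -0.10 had a 95% interval of -0.26 to 0.05. CDC7 was at 17.9 and 16.2 FPKM in parent cells, 9.17 and 9.68 with siLINC01534-1, and 12.7 and 13.1 with siLINC01534-2. It fell with each siRNA, by 0.79 (SE 0.064) and by 0.38 (SE 0.064) on the log2 scale. CCNE2, a cyclin E, was at 15.4 and 17.2 FPKM in parent cells, 7.58 and 8.43 with siLINC01534-1, and 11.7 and 11.1 with siLINC01534-2 (log2 differences -0.94 ± 0.078 and -0.48 ± 0.078). In GRCh37, 37% of its exonic bases overlap INTS8 on the opposite strand, and whether strand was used in counting is not given in the sources used here. The other cyclin E, CCNE1, was at 30.7 and 31.2 FPKM in parent cells, 34.1 and 34.3 with siLINC01534-1, and 31.5 and 28.8 with siLINC01534-2. Its siLINC01534-1 libraries were above all others, with a log2 difference of 0.14 (95% interval 0.01 to 0.27, adjusted p = 0.075) that passed the threshold when 1 of the siLINC01534-2 libraries was left out (adjusted p = 0.040).

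Of the clamp, its loader and the single-strand binding protein RPA, 7 of 9 genes fell with siLINC01534-1 and 5 of 9 with siLINC01534-2. Beside these counts, 24.5% and 11.8% of all tested genes fell. PCNA was at 253 and 264 FPKM in parent cells, 141 and 131 with siLINC01534-1, and 239 and 217 with siLINC01534-2. The clamp was at 0.528 of parent with siLINC01534-1 (log2 difference -0.92 ± 0.063, adjusted p = 0.00030), and the siLINC01534-2 difference of -0.18 did not pass the test (95% interval -0.34 to -0.02, adjusted p = 0.095). RFC2, a small subunit of the clamp loader, was at 54.2 and 56.2 FPKM in parent cells, 26.2 and 27.9 with siLINC01534-1, and 44.4 and 38.4 with siLINC01534-2, which is 0.491 and 0.750 of parent (SE 0.075 on the log2 scale, adjusted p = 0.00040 and 0.018). RFC5 was at 59.9 and 58.7 FPKM in parent cells, 34.4 and 36.5 with siLINC01534-1, and 43.8 and 42.8 with siLINC01534-2, for log2 differences of -0.73 ± 0.044 and -0.44 ± 0.044. The groups did not overlap in either gene. RFC4, in contrast, fell by 0.37 and by 0.39, whereas RFC1 and RFC3 fell with siLINC01534-1 (-0.56 and -0.71) and did not pass the test with siLINC01534-2 (-0.09 and -0.10). Of the RPA subunits, RPA1 fell with each siRNA (-0.25 and -0.39), RPA3 fell with siLINC01534-2 (-0.36), and RPA2 passed in neither comparison.

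The replicative polymerases and primase fell modestly, 6 of 9 genes with siLINC01534-1 (median -0.20) and 5 of 9 with siLINC01534-2 (median -0.27). Over all tested genes, 24.5% and 11.8% fell. POLE2, the second subunit of the leading-strand polymerase epsilon, was at 15.4 and 17.5 FPKM in parent cells, 9.35 and 10.2 with siLINC01534-1, and 9.12 and 11.4 with siLINC01534-2. The 2 siRNA groups overlapped, and both lay below parent (log2 differences -0.70 ± 0.115 and -0.64 ± 0.115). POLA1, the catalytic subunit of the priming polymerase alpha, was at 15.3 and 14.5 FPKM in parent cells, 9.18 and 9.11 with siLINC01534-1, and 10.7 and 9.79 with siLINC01534-2, for log2 differences of -0.65 ± 0.061 and -0.50 ± 0.061. POLE, the catalytic subunit of polymerase epsilon, was at 32.2 and 34.0 FPKM in parent cells, 27.7 and 26.4 with siLINC01534-1, and 25.1 and 24.2 with siLINC01534-2, for log2 differences of -0.28 ± 0.049 and -0.41 ± 0.049. In contrast to POLE2, POLE was lowest with siLINC01534-2. POLA2, POLD2 and POLD3 passed the test with neither siRNA. PRIM2 is known to have partial copies in the genome, and reads shared with them were not examined here.

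Both enzymes that join Okazaki fragments fell with each siRNA, but neither call of LIG1 was kept in each refit that left out a library. FEN1, the flap nuclease, was at 104 and 109 FPKM in parent cells, 71.6 and 71.4 with siLINC01534-1, and 86.5 and 86.9 with siLINC01534-2, with no overlap between groups (log2 differences -0.56 ± 0.037 and -0.29 ± 0.037). LIG1, the ligase, was at 31.6 and 31.5 FPKM in parent cells, 26.0 and 27.3 with siLINC01534-1, and 26.7 and 25.4 with siLINC01534-2 (log2 differences -0.23 ± 0.046 and -0.27 ± 0.046). Here the siRNA groups overlapped each other and not parent. The shares of all tested genes that fell were 24.5% with siLINC01534-1 and 11.8% with siLINC01534-2.

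While 24.5% of all tested genes fell with siLINC01534-1 and 11.8% with siLINC01534-2, all 4 genes of nucleotide supply fell with each siRNA. Of their siLINC01534-2 calls, only that of RRM2 was kept in each refit that left out a library. TK1, the S-phase thymidine kinase, was at 223 and 226 FPKM in parent cells, 127 and 126 with siLINC01534-1, and 199 and 186 with siLINC01534-2. It fell by 0.82 on the log2 scale with siLINC01534-1 (SE 0.040, adjusted p = 0.00012) and by 0.22 with siLINC01534-2 (SE 0.040, adjusted p = 0.017). RRM2, the regulated subunit of ribonucleotide reductase, was at 172 and 166 FPKM in parent cells, 115 and 119 with siLINC01534-1, and 131 and 136 with siLINC01534-2 (log2 differences -0.53 ± 0.040 and -0.34 ± 0.040). TYMS, thymidylate synthase and the target of 5-fluorouracil, was at 137 and 132 FPKM in parent cells, 102 and 99.3 with siLINC01534-1, and 110 and 101 with siLINC01534-2 (log2 differences -0.41 ± 0.049 and -0.35 ± 0.049). The siRNA groups were apart for TK1 and RRM2 and overlapped for TYMS, and all lay below parent. In GRCh37, 39.9% of the exonic bases of TYMS overlap ENOSF1 on the opposite strand. RRM1, the large reductase subunit, fell by 0.33 and by 0.18.

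The siRNAs were then compared with each other. Of the 49 genes, 23 were lower with siLINC01534-1 than with siLINC01534-2 and 6 were higher (ORC2, ORC3, ORC6, CCNE1, RPA1 and RPA2), where 22.3% of all tested genes were lower and 19.5% higher. The median log2 difference was -0.15, beside 0.00 for all tested genes. The largest differences were those of MCM10 (-0.95 ± 0.057, adjusted p = 0.00030), DBF4 (-0.93 ± 0.061, adjusted p = 0.00037), GINS1 (-0.86 ± 0.063, adjusted p = 0.00050) and PCNA (-0.74 ± 0.063, adjusted p = 0.00078). On the other side stood ORC3 (0.69 ± 0.046, adjusted p = 0.00039) and ORC6 (0.55 ± 0.046, adjusted p = 0.00072). MCM10 and DBF4 were below 1/2 of their siLINC01534-2 means, as 2.94% of all tested genes were, and none of the 49 was 2-fold higher, beside 1.76% of all tested genes. Of the 29 calls, 20 were kept without each library in turn. The 9 lost in at least 1 refit were ORC2, CDT1, MCM5, MCM7, CCNE1, RPA1, RPA2, RRM1 and RRM2, so that ORC3 and ORC6 alone of the 6 higher genes were kept.

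The roles differed in how far the siRNAs were apart. All 6 MCM2-7 genes were lower with siLINC01534-1 (median log2 difference -0.31), beside 22.3% of all tested genes. Of the 9 polymerase and primase genes, 0 passed in limma, their differences ran from -0.15 to 0.21, and at an unadjusted p under 0.05 the count was 2, both higher with siLINC01534-1, where 24.5% of all tested genes were higher and 26.8% lower. For POLE2 the difference was -0.06 with a 95% interval of -0.34 to 0.23, and for POLA1 it was -0.15 with an interval of -0.30 to 0.00. In the clamp, loader and RPA group, PCNA, RFC1, RFC2, RFC3 and RFC5 were lower with siLINC01534-1, and RPA1 and RPA2 were higher. Of the licensing regulators, CDT1 passed the test (-0.16, adjusted p = 0.048), and CDC6 (0.05, adjusted p = 0.44) and GMNN (-0.15, adjusted p = 0.066) did not.

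**Figure D3:**
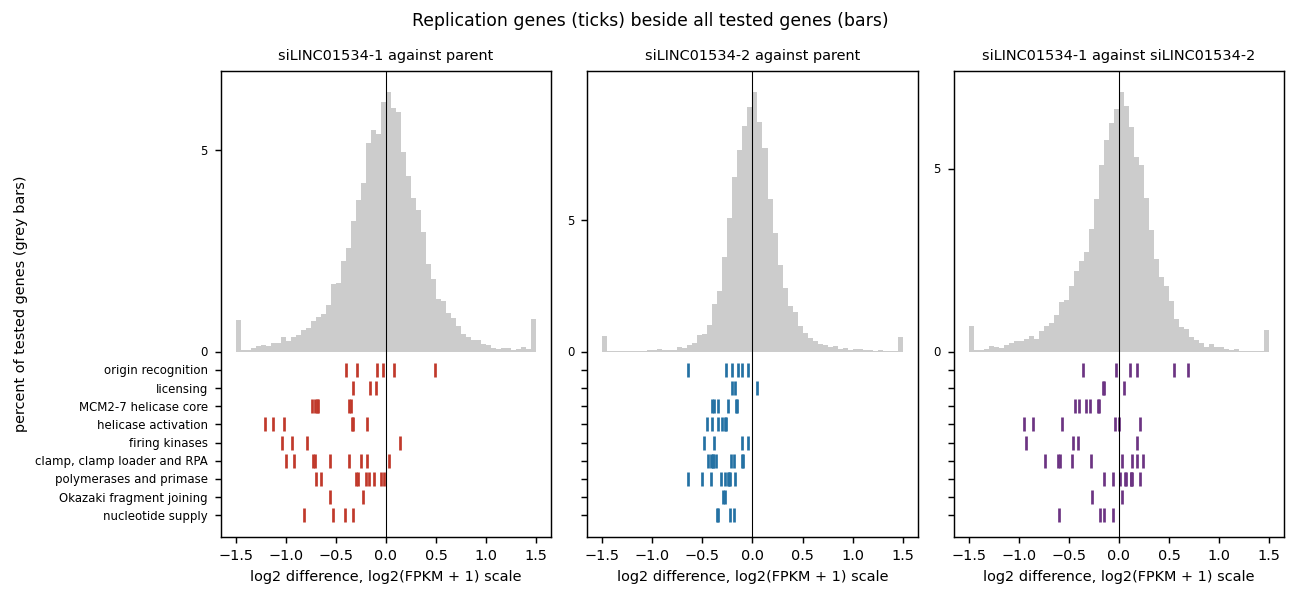
Log2 differences of the 49 replication genes (coloured ticks, by role) below the distribution over all 12203 tested genes (grey bars, percent of genes per bin, outermost bins holding all values beyond 1.5). In the first and second panels 45 and 48 of the 49 ticks lie left of 0, and in the third the MCM2-7 ticks lie left of 0 while the polymerase ticks cluster around it.

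An siRNA can lower other transcripts through short matches of its antisense strand in 3′ UTRs, so the complements of antisense positions 2 to 8 were searched, for each gene, in the 3′ UTR of its longest coding GENCODE transcript on GRCh37, the build the authors mapped to. This search was chosen with the values known. For siLINC01534-1 the 7-base word is GAATAAA, whose last 6 bases are the polyadenylation hexamer. For siLINC01534-2 it is TTCGAGT. The first word stood in 14 of the 49 genes (28.6%) and in 26.8% of 10579 tested genes with a 3′ UTR. The second stood in 0 of the 49 and in 1.91% of tested genes. The sites of the genes with the largest falls, and of MCM2 with a site near its end, are given as 23 bases or fewer on the strand of the transcript, with the word in capitals and its position in GRCh37.
MCM10 (chr10:13252771-13252777, plus strand): aaagaaaaGAATAAAgtatttat
GINS1 (chr20:25429170-25429176, plus strand): tgttctatGAATAAAgagtttta
DBF4 (chr7:87537659-87537665, plus strand): aaattacaGAATAAActtgtgac
PCNA (chr20:5095751-5095757, minus strand): tgtttaaaGAATAAAgtccaaag
CDC7 (chr1:91990030-91990036, plus strand): atgaggtaGAATAAAaaagaata
RFC5 (chr12:118470010-118470016, plus strand): atatcacaGAATAAActttcttt
MCM2 (chr3:127341266-127341272, plus strand): ataaagttGAATAAAatataaa
In MCM2, MCM3, RFC3, RFC5 and POLA1 the word ended within 40 bases of the transcript end, where a polyadenylation signal is usual. The other genes with the word were ORC4, GINS4, RFC1 and RPA3.

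The 14 replication genes with GAATAAA had a median log2 difference from parent of -0.71 with siLINC01534-1, and 13 of them fell. The 35 without it had a median of -0.29, and 24 fell and 1 rose, beside 24.5% and 21.8% of all 12203 tested genes. With siLINC01534-2 the medians were -0.29 and -0.26. Between the siRNAs, 11 of the 14 genes with the word were lower with siLINC01534-1 and 0 were higher (median -0.39). Of the 35 without it, 12 were lower and 6 higher (median 0.01), where 22.3% of all 12203 tested genes were lower and 19.5% higher. Over all tested genes, the medians with siLINC01534-1 were -0.14 with the word and 0.03 without it, and with siLINC01534-2 they were 0.01 and 0.00. Genes with the word also had longer 3′ UTRs, with a median of 1255 bases against 639 among replication genes and 2652 against 1139 among all tested genes. The genes without the word included RFC2, GINS2, CCNE2 and TK1, which were at 0.491, 0.489, 0.491 and 0.564 of parent with siLINC01534-1. The part of the word in these differences was not tested.

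**Figure D4:**
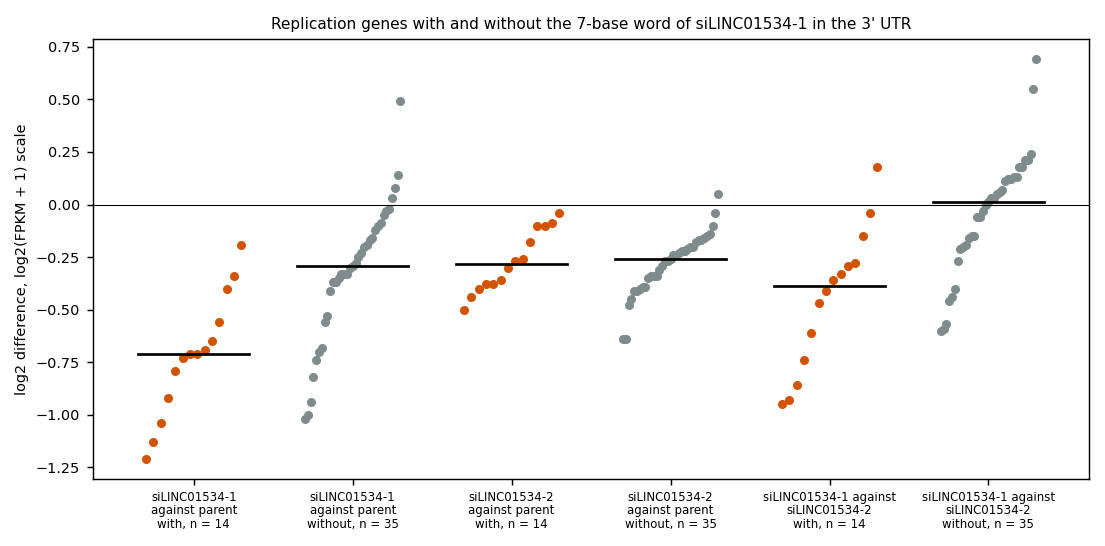
Log2 differences of the 49 replication genes, 1 point per gene sorted by value, split by whether the 3′ UTR holds the 7-base word of siLINC01534-1 (orange, 14 genes) or not (grey, 35 genes), with black lines at the medians. The orange and grey medians lie apart for siLINC01534-1 against parent (-0.71 and -0.29) and close together for siLINC01534-2 against parent (-0.29 and -0.26), and points of both colours span a wide range.

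Other genes of the pathway were counted from lists that hold none of the 49. Among all tested genes, 24.5% fell and 21.8% rose with siLINC01534-1, and 11.8% fell and 11.1% rose with siLINC01534-2. Of 13 further initiation genes, 9 fell with siLINC01534-1 and 6 with siLINC01534-2, and 0 rose in limma with either, also at an unadjusted p under 0.05. At the unadjusted threshold, 26% of all tested genes rose with siLINC01534-1 and 18.7% with siLINC01534-2. TOPBP1 and TICRR, which bring CDC45 and GINS to origins, fell by 0.87 and 0.67 with siLINC01534-1 and by 0.20 and 0.40 with siLINC01534-2, and RECQL4, a helicase of the same step, fell by 0.70 and by 0.25. Of 14 further polymerase and fork enzymes, 10 fell and 1 rose with siLINC01534-1, and 3 fell and 2 rose with siLINC01534-2. With siLINC01534-2, the small epsilon subunits stood apart from POLE and POLE2, which fell. POLE3 was at 86.0 and 83.5 FPKM in parent cells, 45.2 and 46.3 with siLINC01534-1, and 86.2 and 86.8 with siLINC01534-2, and POLE4 was at 15.2 and 16.4, 8.74 and 9.46, and 18.8 and 20.4 FPKM. POLE4 thus fell with siLINC01534-1 (-0.73, adjusted p = 0.00086) and rose with siLINC01534-2 (0.29, adjusted p = 0.037). POLD4, the small subunit of polymerase delta, was higher with each siRNA (0.47, adjusted p = 0.013, and 0.76, adjusted p = 0.0071).

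Of 13 fork protection and checkpoint genes, 6 fell and 2 rose with siLINC01534-1, and 1, CLSPN, fell with siLINC01534-2. The shares of all tested genes were 24.5% lower and 21.8% higher with siLINC01534-1, and 11.8% lower and 11.1% higher with siLINC01534-2. CLSPN, the checkpoint mediator claspin, fell by 0.67 and by 0.28, while CHEK1, the checkpoint kinase, fell by 0.48 with siLINC01534-1 and was at 0.05 with siLINC01534-2 (adjusted p = 0.61). TIPIN, a fork protection factor, fell by 0.48 with siLINC01534-1 and was at -0.20 with siLINC01534-2 (adjusted p = 0.17). Of 18 genes of nucleotide synthesis, 11 fell and 1 rose with siLINC01534-1, and 8 fell and 0 rose with siLINC01534-2. IMPDH1, of guanine nucleotide synthesis, fell by 0.65 and by 0.13, CAD, of pyrimidine synthesis, fell by 0.21 and by 0.48, and CTPS2 fell by 0.45 with siLINC01534-1 and was at 0.06 with siLINC01534-2. Of 12 chromatin assembly genes, 10 fell and 1 rose with siLINC01534-1, and 9 fell and 1 rose with siLINC01534-2. The riser was ASF1A, a histone chaperone (0.81 and 0.21), while SUPT16H, a subunit of FACT, fell by 0.75 and by 0.46 and UHRF1, which guides DNA methylation at forks, fell by 0.80 and by 0.30.

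Of 23 tested genes of E2F, RB and G1 control, 8 rose and 8 fell with siLINC01534-1, and 3 rose and 6 fell with siLINC01534-2. Beside these counts, 21.8% of all tested genes rose and 24.5% fell with siLINC01534-1, and 11.1% rose and 11.8% fell with siLINC01534-2. TFDP1, a dimerization partner of E2F factors, was at 135 and 134 FPKM in parent cells, 73.2 and 72.9 with siLINC01534-1, and 67.2 and 65.7 with siLINC01534-2. It fell by 0.87 and by 1.01 on the log2 scale, with no overlap between parent and siRNA libraries. E2F8, a late repressor of the family, fell by 1.19 with siLINC01534-1 and was at -0.16 with siLINC01534-2 (adjusted p = 0.14). The remaining E2F and DP genes went both ways. With siLINC01534-1, TFDP2, E2F5 and E2F6 rose (0.40, 0.73 and 0.48), and E2F3, E2F4 and E2F7 fell (-0.44, -0.38 and -0.24). With siLINC01534-2, E2F2 and E2F4 fell (-0.52 and -0.22) and TFDP2 was at -0.03. E2F1 passed the test with neither siRNA (-0.20 and -0.16). Whether these calls hold without each library was not examined. CDKN1A, the kinase inhibitor p21, was at 132 and 135 FPKM in parent cells, 259 and 256 with siLINC01534-1, and 169 and 178 with siLINC01534-2, and rose by 0.95 and by 0.38. Of 11 mitotic genes, all 11 fell with siLINC01534-1 (median -0.88) and 10 with siLINC01534-2 (median -0.33). CCNA2, cyclin A, fell by 1.77 and by 0.52, MKI67, the proliferation antigen, by 1.11 and by 0.41, and CDK1 by 0.99 with siLINC01534-1, with -0.28 for siLINC01534-2 (adjusted p = 0.078). The mitotic genes thus moved with the replication genes in both comparisons, and the part of the share of cycling cells in these results was not tested. Among the other genes named, the siLINC01534-2 calls of TOPBP1, POLE4, CLSPN, IMPDH1 and ASF1A were lost whichever of the 6 libraries was left out, and those of RECQL4, TICRR, POLD4 and UHRF1, as well as the siLINC01534-1 calls of POLD4 and TIPIN, were lost when at least 1 of them was.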

How the data were processed

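RNA-seq was performed by the authors on 6 libraries of HCT116 cells, 2 per group as the labels state, while the methods of the study give 3 cultures. Strand-specific poly(A) libraries were sequenced in single-end mode, mapped to hg19 with TopHat2 2.0.13, Bowtie2 2.2.3 and SAMtools 0.1.19, and deposited by the authors as FPKM from Cufflinks 2.2.1. Which gene annotation was used is not given in the sources used here, and FPKM are estimates that share reads among overlapping genes. The authors' 2-fold rule was used as an alternative only.

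The deposited FPKM were put on the log2(FPKM + 1) scale, genes whose mean FPKM was 1 or more were kept, and limma 3.58.1 in R 4.3.3 was fitted with 1 mean per group, eBayes with a trend and Benjamini-Hochberg adjustment over all tested genes (threshold 0.05, two-sided). The pseudocount understates changes of low genes. The script was tested on simulated data. Ratios are of mean FPKM without a pseudocount. Sequences were searched with Python 3.11.15, pandas 2.3.3 and numpy 2.4.6.

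The 49 genes, the gene lists and the sequence searches were chosen with earlier results of these data known. Values in each library are given for up to 3 genes per role with the largest change past the threshold in at least 1 comparison, the licensing regulators, the E cyclins, PCNA, genes called in opposite directions and genes past 2-fold. From the other lists, up to 3 genes with the largest change past the threshold are named, and the remaining E2F and DP genes are given beside TFDP1 and E2F8. The remaining genes are given in brief.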

Additional observations from a re-analysis of the deposited data

Results flagged for a closer look

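The effects of siLINC01534-1 and siLINC01534-2 against the same parent libraries were compared by the direct test between the siRNAs. They differed in 29 of the 49 replication genes and in 41.8% of all tested genes. The log2 differences below are siLINC01534-1 minus siLINC01534-2. In the ORC they were 0.18 for ORC2, 0.69 for ORC3, -0.36 for ORC4 and 0.55 for ORC6, and for CDT1 the difference was -0.16. In the helicase they were -0.29 for MCM2, -0.33 for MCM3, -0.44 for MCM4, -0.20 for MCM5, -0.40 for MCM6 and -0.21 for MCM7. For the helicase activators they were -0.95 for MCM10, -0.86 for GINS1 and -0.57 for GINS2. For the kinases and cyclins they were -0.41 for CDC7, -0.93 for DBF4, 0.18 for CCNE1 and -0.46 for CCNE2. For the clamp, loader and RPA they were -0.74 for PCNA, -0.47 for RFC1, -0.59 for RFC2, -0.61 for RFC3, -0.28 for RFC5, 0.13 for RPA1 and 0.24 for RPA2. Further values were -0.27 for FEN1, -0.15 for RRM1, -0.19 for RRM2 and -0.60 for TK1.

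Of the genes named from the other lists for the size of their change from parent, 19 differed between the siRNAs. Over all tested genes the share was 41.8%. The named genes were picked for large changes in these same libraries, which favours such differences, so their number is not a result about the lists. The initiation genes TOPBP1, RECQL4 and TICRR gave -0.67, -0.45 and -0.27. The polymerase subunits POLE3 and POLE4 gave -0.90 and -1.03, and the checkpoint genes CLSPN and CHEK1 gave -0.40 and -0.53. In nucleotide synthesis, IMPDH1 gave -0.52, CTPS2 gave -0.52 and CAD gave 0.27. In chromatin assembly, ASF1A gave 0.60, UHRF1 gave -0.51 and SUPT16H gave -0.29. In cell cycle control, E2F8 gave -1.03, TFDP1 gave 0.14, CDKN1A gave 0.57, CCNA2 gave -1.25, MKI67 gave -0.70 and CDK1 gave -0.71. Groups of 2 libraries are too small for a search for outlying libraries.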

How the results depend on the processing

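The counts of replication genes past the threshold were recomputed under each alternative. They were unchanged with a pseudocount of 0.1, a minimum mean FPKM of 5 or median-of-ratios scaling, and no gene changed direction past the threshold in any alternative. Without each library in turn, the siLINC01534-1 calls ranged from 31 to 36 (30 to 34 lower, 1 to 2 higher), the siLINC01534-2 calls from 15 to 23 (all lower), and the calls between siRNAs from 21 to 27 (19 to 24 lower, 2 to 4 higher). By the 2-fold rule the counts were 6 (6 lower, 0 higher), 0 and 2 (2 lower, 0 higher). A fit of only the groups compared gave 2 higher genes with siLINC01534-1 against parent and 3 between siRNAs, and 23 calls with siLINC01534-2. The 6 genes higher between siRNAs were 3 without the filter on low values and 2 without the trend in eBayes. The cause was not tested.

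Replicate numbers were not taken to pair the samples, since the deviations of same-numbered libraries correlated by 0.114, 0.027 and -0.046 and nothing in the labels ties them. With the replicate block, 36 genes were called with siLINC01534-1 (35 lower, 1 higher), 28 with siLINC01534-2 (28 lower, 0 higher) and 24 between siRNAs (21 lower, 3 higher). Calls over all tested genes dropped as well, from 5654, 2788 and 5096 to 5114, 1993 and 4438. With 2 libraries per group, no counts and 8670000 to 10400000 reads, the precision was limited, and the largest standard errors of a log2 difference among the 49 genes were those of POLE2 (0.115), GINS4 (0.097) and PRIM1 (0.092).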
